A study of Daphnia magna with 16 samples.

Results

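The 12 *Daphnia magna* females that carried a mutation in the tryptophan hydroxylase gene fell into 2 sets of transcript profiles that did not follow the 3 mutant clones. State A held 6 females, namely all 4 of the bi-allelic clone 16, 1 of 4 of the mono-allelic clone T+ (replicate 5) and 1 of 4 of the bi-allelic clone 17 (replicate 5). State B held the other 6, namely replicates 3, 7 and 9 of T+ and of clone 17. The sets were chosen from these same arrays, on which they formed the main axis of variance, so differences between them in the probes of genes are given as a description of sizes and carry no test. The series has 16 arrays, and the 4 that are left are from the wild type clone F (W), which is the parent of all mutants.

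Each array was hybridised with total RNA of the whole body of 1 adult female, labelled with 1 dye, and the brightness of a spot is read as the level of the transcript that its probe binds. Each clone gave 4 females. T+ carries an insertion or deletion, made with CRISPR-Cas9, on 1 allele of the gene, whereas clone 16 and clone 17 (TA- and TB- in the study) carry such changes on both alleles, and no agent was given. Each mutant is a single clonal line, which limits it as a model of its genotype. For the females' age the labels hold 2 entries, 4 days and 5 days, and the methods describe adults whose broods had been removed at the end of a reproduction experiment. In whole animals, fewer cells of a type and less RNA per cell cannot be told apart. No probe of the mutated gene is named in the annotation used here, and so the mutation itself was not checked on the arrays.

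Tryptophan hydroxylase makes the precursor of serotonin from tryptophan, and the other main use of tryptophan is its breakdown through kynurenine, a route that opens with tryptophan 2,3-dioxygenase. A crustacean grows by shedding its cuticle, a layer of chitin fibres and cuticular proteins that the epidermis builds anew for each moult, and adult *Daphnia* females moult once for every brood. Chitinases cut old chitin, chitin deacetylases modify the chitin of the new layer, and the mevalonate pathway, with HMG-CoA synthase and HMG-CoA reductase at its head, supplies the isoprenoids from which arthropods make their juvenile hormones.

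Every array was given a place on the axis that joins the means of the states, taken over 17270 probes, where 0 is the mean of state B and 1 the mean of state A, and where a mutant array was left out of the means it was measured against. The places in state A ran from 0.868 to 1.07 (median 0.966; 0.976 ± 0.0728, SD, n = 6), and those in state B from -0.0523 to 0.228 (median -0.026; 0.0105 ± 0.107, SD, n = 6). The states thus left a gap of 0.64 between clone 16 replicate 7, the lowest array of state A, and clone 17 replicate 3, the highest of state B. Without that last female, the other 5 arrays of state B lay between -0.0523 and -0.019. The 2 arrays nearest the divide were therefore 1 in each state and in different bi-allelic clones.

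No wild type female was placed within the range of either state, although W replicate 9 lay close to the edge of state B. W replicate 7 was placed at 0.744, W replicate 5 at 0.653, W replicate 3 at 0.328 and W replicate 9 at 0.244, so that all 4 lay inside the gap between the mutant states, one pair on the side of state A and the other on the side of state B. The nearest female of state B to W replicate 9 on the axis was clone 17 replicate 3, at 0.228. Over probes, W replicate 9 had a mean r of 0.934 with state B and of 0.831 with state A. The spread among the W places (SD 0.244, n = 4) was larger than that within either mutant state. The division into 2 states is thus a description of the mutants, and the W females covered the middle of the same axis.

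**Figure D1:**
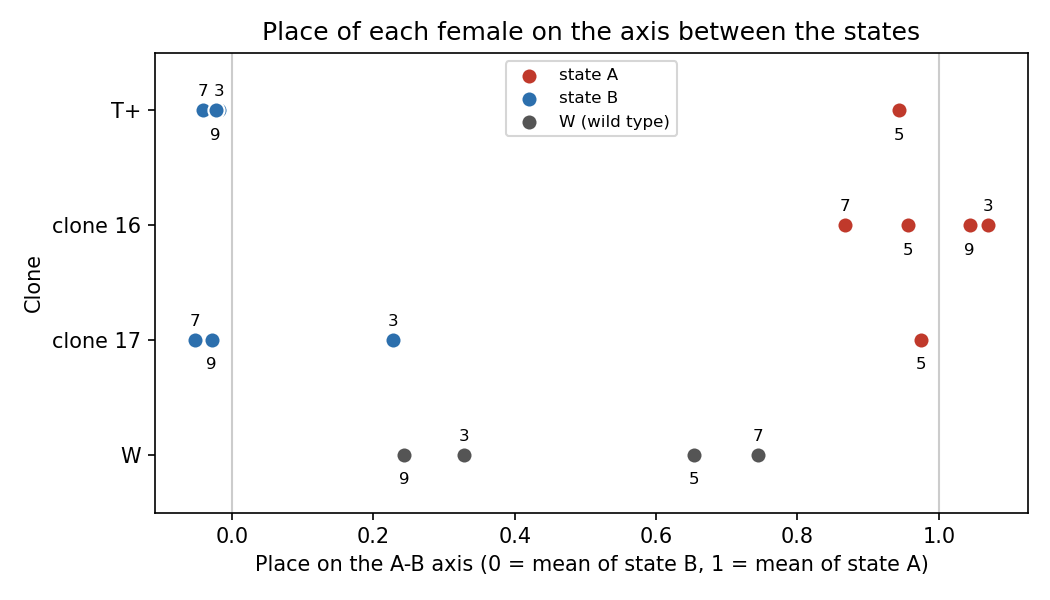
Place of each of the 16 females on the axis between the states (horizontal, no unit; 0 is the mean of state B and 1 that of state A) by clone (vertical), with the replicate number beside each point. State A reaches down to 0.868 and state B up to 0.228, and the 4 W females lie between them, from 0.244 to 0.744.

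The states accounted for 75.3% of the variance among the 12 mutant arrays and the 3 clones for 43.1%, both computed on the same arrays. These shares overlap because clone 16 lies wholly in state A. The states were read from the main axis of this variance, so a large share was built in. No conclusion about states against clones is drawn from the shares. Over probes, Pearson's r between 2 arrays ran from 0.916 to 0.983 within state A (15 pairs), from 0.944 to 0.989 within state B (15 pairs) and from 0.753 to 0.861 between the states (36 pairs). A female of T+ or clone 17 in state A was closer to females of another clone than to her own sisters. T+ replicate 5 was nearest to clone 16 replicate 5 (r = 0.983), and clone 17 replicate 5 to clone 16 replicate 3 (r = 0.967). Among the females of state B, clone 17 replicate 3 was nearest to a wild type female, W replicate 9 (r = 0.965), and averaged 0.954 with the rest of its own state.

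In all, 1087 of the 17270 probes (6.29%) were at least 2-fold higher in state A with no overlap between the arrays of the states, and 1166 (6.75%) were lower in the same way. The median difference, mean of state A minus mean of state B, was 0.03 on the log2 scale over all probes, 2.61 over the probes called higher and -2.87 over those called lower. Most of these differences were far beyond the 2-fold limit. At least 16-fold differences were seen at 291 higher and 378 lower probes, and at least 128-fold differences at 42 higher and 74 lower probes. At the limit itself, 362 further probes reached 2-fold higher and 277 reached 2-fold lower, but with arrays of the states that overlapped. Since the states were read from these probes, the counts describe the size of the split and cannot be set against an error rate.

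The scanner software's mark for a spot well above background gave a count of transcripts seen in 1 state alone. It marked 309 probes (1.79%) on all 6 arrays of state A and on none of state B, and 314 (1.82%) on all 6 of state B and on none of state A. The wild type females were again divided on these probes. Of the 309, 174 were marked on 1 to 3 of the W arrays, 114 on none and 21 on all 4, and of the 314 seen only in state B, 238 were marked on 1 to 3 W arrays, 64 on none and 12 on all 4. Among the 1087 higher and 1166 lower probes, 299 and 301 were well above background on all 12 mutant arrays, against 9619 of all 17270 probes. On these both sides of the difference were measured. On the other called probes at least some mutant array was not well above background, so the size of the difference can rest in part on values at background.

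The largest differences were ranked among probes past 2-fold whose states did not overlap within T+, within clone 17 and over all mutant arrays. The first 10 in either direction belong to probes for which no gene name was given in the annotation used here, and so only the first 2 of each direction are described. CUST_74193_PI429715507 had a normalized fluorescence (log2) of 13.54 to 15.31 in state A (median 14.47), of 3.67 to 7.80 in state B (median 5.18), and of 8.58, 13.03, 13.19 and 8.93 in W replicates 3, 5, 7 and 9, a difference between the states of 9.07. It was well above background on all 6 arrays of state A but on 2 of 6 of state B, so that the size of the difference rests in part on values at background. CUST_81043_PI429715507 had 14.62 to 16.91 in state A (median 16.07), 5.91 to 9.54 in state B (median 6.90), and 10.38, 13.56, 13.99 and 10.46 in W, a difference of 8.74, with all 6 arrays of state A and 5 of 6 of state B well above background. For both probes W replicates 5 and 7 came close to the lowest female of state A, and W replicates 3 and 9 lay close to clone 17 replicate 3, which was the highest female of state B.

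The probes that were lowest in state A showed the mirror image. CUST_58648_PI429715507 had 3.61 to 9.23 in state A (median 6.82), 14.35 to 16.44 in state B (median 16.36), and 12.55, 10.13, 7.97 and 12.59 in W replicates 3, 5, 7 and 9, a difference of -9.47, with 4 of 6 arrays of state A and all 6 of state B well above background. CUST_105649_PI429715507 had 3.75 to 6.86 in state A (median 4.50), 12.69 to 14.73 in state B (median 14.50), and 10.28, 7.50, 3.75 and 10.49 in W, a difference of -9.25. It was well above background on 2 of 6 arrays of state A and on all 6 of state B. In both probes clone 17 replicate 3 was again the array of state B nearest to state A.

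Across the 2253 probes that separated the states, W replicates 5 and 7 again lay nearer to state A than W replicates 3 and 9. Measured probe by probe on the same scale of 0 to 1, the median place of W replicates 3, 5, 7 and 9 was 0.213, 0.576, 0.543 and 0.0829 on the probes higher in state A, and 0.364, 0.761, 0.988 and 0.332 on those lower in state A. On the probes lower in state A, W replicate 7 thus stood at the level of state A, while on the probes higher in state A its median was midway. Averaged over the 4 females, W lay between the means of the states on 935 of the 1087 higher probes and on 979 of the 1166 lower ones. The highest and lowest W females differed by at least 2-fold at 75.9% of the 2253 probes, against 46% of all probes. When each W female was set against the mean of the other 3, her deviation over all probes followed the difference between the mutant states with an r of -0.31 for W replicate 3, 0.47 for W replicate 5, 0.48 for W replicate 7 and -0.66 for W replicate 9. W replicate 7 stood apart from all other arrays in its control spots, with a spike-in signal of 10.69 against 9.51 to 10.13 on the other 15 arrays (log2), and the part of this in its place was not tested.

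**Figure D2:**
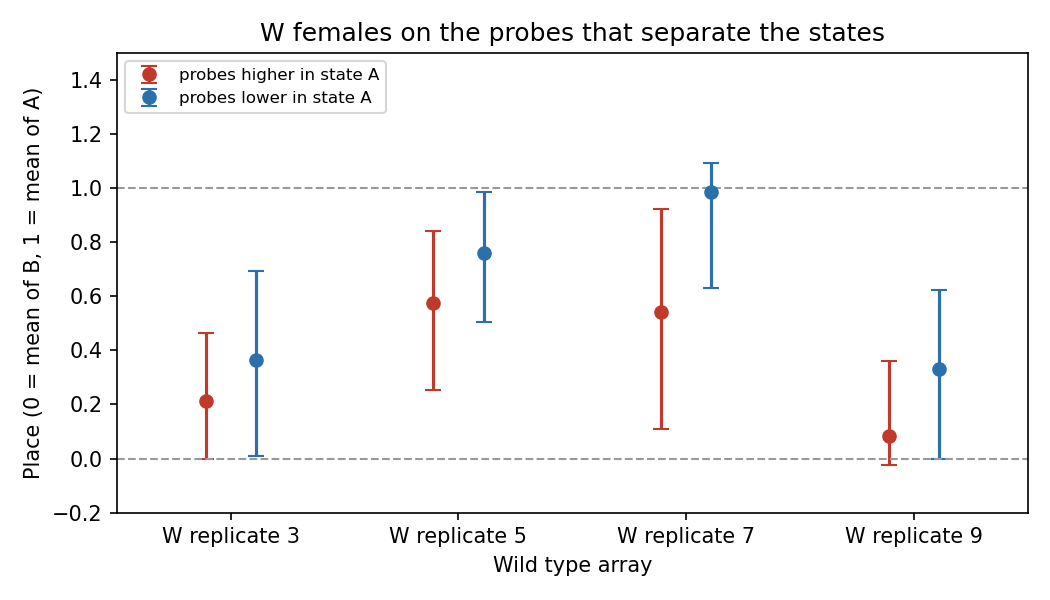
Place of each wild type female on the probes that were higher (left of each pair) and lower (right of each pair) in state A (vertical, no unit; 0 is the mean of state B and 1 that of state A); points are medians over 1087 and 1166 probes and bars are quartiles. W replicates 5 and 7 lie nearer to state A than W replicates 3 and 9 on both sets of probes.

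T+ and clone 17 each had 1 female in state A and 3 in state B, so the difference could be taken inside each clone with no array shared. Replicate 5 minus the mean of replicates 3, 7 and 9 had a Pearson's r of 0.80 and a Spearman's rho of 0.57 between the clones across 17270 probes, which are not independent of each other. In T+, 1618 probes were at least 2-fold higher and 1726 at least 2-fold lower in replicate 5 than in the mean of its 3 sisters, and in clone 17 the numbers were 1755 and 2151. Of these, 1097 were higher in both clones, 1170 were lower in both, and 81 moved in opposite directions. A further 996 passed 2-fold in T+ alone and 1558 in clone 17 alone. The 4 largest probes described above passed 2-fold inside both clones, but separation within each clone was a condition of their choice. The differences were 9.89 in T+ and 8.16 in clone 17 for CUST_74193_PI429715507, and -9.87 and -8.56 for CUST_58648_PI429715507. The rule that placed the females used these same arrays, so the likeness is a description of what the state A females share.

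**Figure D3:**
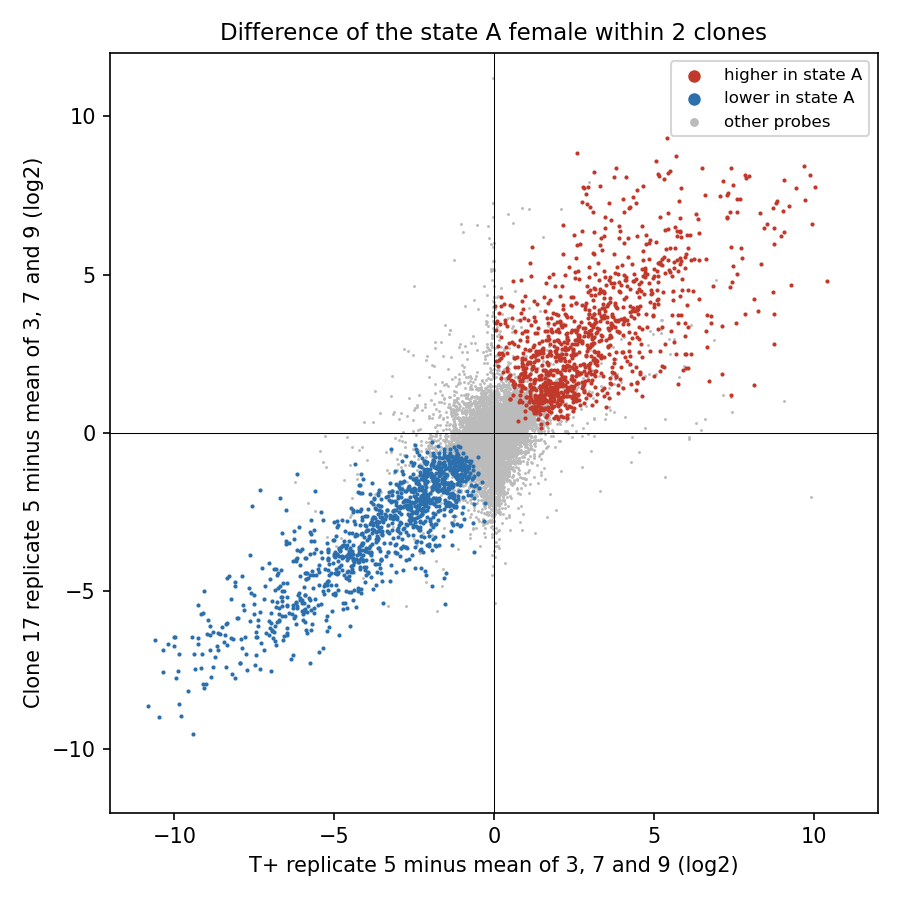
Difference of replicate 5 from the mean of replicates 3, 7 and 9 on the log2 scale within T+ (horizontal) and within clone 17 (vertical), 1 point per probe (17270), coloured by the comparison of all 12 mutant arrays. Probes higher and lower in state A fall along the diagonal (r = 0.80), and 996 and 1558 probes passed 2-fold in T+ alone and in clone 17 alone.

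The arrays lay on 2 slides, and each slide held 3 arrays of state A and 3 of state B. Taken on each slide alone, the difference between the states had an r of 0.97 across probes between the slides, and 2137 of the 2253 called probes passed 2-fold in the same direction on both. On slide 1 alone, 1412 probes were higher and 1475 lower in state A without overlap of its 3 against 3 arrays, and on slide 2 alone 1140 and 1266. The states and the called probes were chosen on the arrays of both slides, so the likeness of the slides follows in part from that choice. Clone 16 was also in state A on both slides, with replicates 5 and 9 on slide 1 and 3 and 7 on slide 2.

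Of the annotated genes, 2 cuticular proteins showed the largest differences, both lower in state A. The annotation used here names 51 probes, which the study had picked from these same arrays because they differed between mutants and W, so their share of called probes is not independent evidence of anything about their functions. Of the 45 that passed the background filter, 1 was called higher (2.22%, against 6.29% of all probes) and 6 were called lower in state A (13.3%, against 6.75%), and their median difference was -0.14, against 0.03 over all probes. This median was -0.0022 without clone 17 replicate 3 and 0.06 with the replicate number as a block. The other 38 overlapped between the states or differed by less than 2-fold. Genes other than those that the rule for names selects are named below after their values were seen.

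Among 11 probes of cuticle constituents, all of which passed the filter, none was called higher and 2 were called lower, with a median difference of -0.14 (-0.0022 without clone 17 replicate 3 and 0.03 with normexp). The shares called were 0% higher and 18.2% lower, against 6.29% and 6.75% of all probes. The largest difference was that of the probe annotated as Cuticle protein (CUST_105652_PI429715507, gene model Dapma7bEVm002950). Its normalized fluorescence (log2) was 6.06 to 9.59 in state A (median 7.63), 11.70 to 15.54 in state B (median 13.29), and 16.16, 12.27, 12.04 and 15.48 in W replicates 3, 5, 7 and 9. All 6 females of state A were below all females of state B and of W, and the difference of -5.69 corresponds to a level 51.6-fold lower (7.65 ± 1.38 in state A and 13.34 ± 1.26 in state B, SD, n = 6 each). It was -4.52 inside T+ and -4.54 inside clone 17.

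The other called cuticle gene, cuticular protein hypothetical 28 (CUST_97562_PI429715507), had 6.20 to 9.78 in state A (median 7.38), 12.29 to 14.52 in state B (median 13.23), and 15.00, 11.77, 11.49 and 14.84 in W, a difference of -5.48. A probe of cuticular protein 50Cb (CUST_67477_PI429715507) followed with -3.43, but here clone 16 replicate 7, at 8.73, lay above the lowest female of state B, at 7.42. In all 3 of these genes the highest female of state B was clone 17 replicate 3, and in the order of the W females replicates 3 and 9 were above replicates 5 and 7.

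The 3 cuticle probes with the largest positive mean differences overlapped between the states, and in each of them the same 4 of the 6 females of state A were high. Cuticular protein RR-2 family member 23 (CUST_8279_PI429715507) had 8.36, 11.95 and 8.75 in clone 16 replicates 3, 7 and 9 and 9.98 in clone 17 replicate 5, but 4.81 in T+ replicate 5 and 5.15 in clone 16 replicate 5. State B had 3.64 to 6.75 for this probe (median 5.64), and W had 10.38, 13.69, 12.91 and 12.32. The low pair in state A thus fell among the females of state B, so that the states overlapped, in spite of a mean difference of 2.88. The same pair was low for another gene model with the name cuticular protein 50Cb (CUST_59848_PI429715507; 3.61 and 3.65, against 7.22 to 9.20 in the other 4 females of state A) and for a second gene model of the RR-2 member (CUST_111187_PI429715507; 3.82 and 3.84, against 6.23 to 9.89).

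At the other end, the smallest difference among cuticle genes was that of cuticular protein 72 (CUST_123147_PI429715507), which had 3.77 to 4.03 in state A (median 3.91) and 3.82 to 4.72 in state B (median 3.88), with no mutant array well above background, against 8.54, 9.53, 9.50 and 8.43 in W. Cuticular protein 49Ag (CUST_102541_PI429715507) had 8.50 to 9.37 in 5 females of state A, 8.64 to 9.04 in state B, and 14.78, 13.56, 13.42 and 14.14 in W, with clone 16 replicate 7 alone at 12.49. These genes separated mutants from W and not the states from each other.

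Of the 8 probes for chitin-binding proteins that passed the filter, none was called higher and 1 was called lower (0% and 12.5%, against 6.29% and 6.75% of all probes). Their median difference of 0.17 had no stable direction, being -0.0076 without clone 16 replicate 7, 0.55 without clone 17 replicate 3 and -0.22 with the clone as a block. The called probe was that of chitin deacetylase (CUST_100299_PI429715507), an enzyme that removes acetyl groups from chitin, with 6.36 to 7.62 in state A (median 6.90), 7.97 to 8.96 in state B (median 8.81), and 8.36, 7.95, 8.07 and 8.69 in W. Its difference was -1.75, 3.37-fold lower in state A (6.94 ± 0.435 in state A and 8.69 ± 0.374 in state B, SD, n = 6 each), and every W female lay above state A. The smallest in this class was cuticular protein analogous to peritrophins 3-D2 (CUST_87769_PI429715507) with -0.22. The 4 probes of 1 chitinase gene model (Dapma7bEVm014956) had differences of 0.56 to 0.93 over all mutant arrays and overlapped between the states. Their direction was not the same inside the clones, being 0.53 to 1.25 inside T+ and -0.89 to -0.67 inside clone 17. For the probe annotated as acidic chitinase (CUST_101191_PI429715507), the values were 8.04 to 9.37 in state A (median 8.91), 7.25 to 9.30 in state B (median 7.92), and 8.87, 8.93, 9.07 and 9.07 in W.

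In the breakdown of tryptophan, the probe of tryptophan 2,3-dioxygenase (CUST_19559_PI429715507, gene model Dapma7bEVm027661) was the only named probe called higher in state A. It had 6.93 in T+ replicate 5, 6.72, 7.09, 5.18 and 6.15 in clone 16 replicates 3, 5, 7 and 9 and 6.67 in clone 17 replicate 5. State B had 3.78 to 3.87 (median 3.82), and W had 3.76, 3.80, 3.94 and 3.85 in replicates 3, 5, 7 and 9. All females of state A lay above all others, and they come from all 3 mutant clones. The probe was well above background on 5 of 6 arrays of state A and on none of state B or W, so that state B has only a bound and the level in state A was at least 2.51-fold higher (6.46 ± 0.702 in state A and 3.82 ± 0.0298 in state B as measured, SD, n = 6 each). The difference was 3.12 inside T+ and 2.84 inside clone 17. A bound of this kind sets the bright group's mean against, on each array of the dim group, the lowest signal among probes well above background. With normexp background correction the difference was 0.91, and the probe was no longer called.

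The enzyme of the next step, kynurenine formamidase (CUST_4536_PI429715507), did not pass the background filter. It had 7.09 in T+ replicate 5 and 7.13 in clone 16 replicate 5, the 2 arrays on which it was well above background. The other 4 females of state A had 3.74 to 4.60, state B had 3.71 to 4.00 and W had 3.87, 4.01, 3.79 and 3.77. The pair with the high signal is the one that was low for the RR-2 cuticular proteins.

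At the head of the mevalonate pathway the 2 enzymes differed in opposite directions. The probe of HMG-CoA reductase (CUST_31810_PI429715507, gene model Dapma7bEVm005035) had 3.81 to 4.47 in state A (median 4.04), 6.14 to 6.91 in state B (median 6.49), and 4.70, 4.57, 3.80 and 4.04 in W. The scanner software marked it as well above background on none of the arrays of state A, on 5 of 6 of state B and on none of W. The W females were near state A and all below state B. The level in state A was at least 3.56-fold lower than in state B (4.07 ± 0.259 in state A and 6.50 ± 0.292 in state B as measured, SD, n = 6 each). With normexp background correction the difference was -0.88, below the 2-fold limit.

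The 4 probes of HMG-CoA synthase, all of gene model Dapma7bEVm000199, were higher in state A by 0.46 to 0.82. For 1 of them (CUST_5069_PI429715507) the arrays did not overlap, with 7.27 to 8.10 in state A (median 7.67) and 6.61 to 7.26 in state B (median 6.89), against 8.84, 8.75, 8.82 and 8.76 in W. The difference of 0.73 was below the 2-fold limit. Both mutant states were thus below every W female, with a mean difference from W of -1.14 in state A and of -1.87 in state B. The probes of diphosphomevalonate decarboxylase (CUST_118326_PI429715507) and phosphomevalonate kinase (CUST_1228_PI429715507), which act later in the pathway, did not pass the filter and were well above background on no array. That of cytosolic acetyl-CoA acetyltransferase (CUST_129188_PI429715507), which precedes the synthase, did not pass either and was well above background on no mutant array. Of the 4 probes listed for isoprenoid biosynthesis, 2 passed the filter, 1 of them called lower (50%, against 6.75% of all probes).

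**Figure D4:**
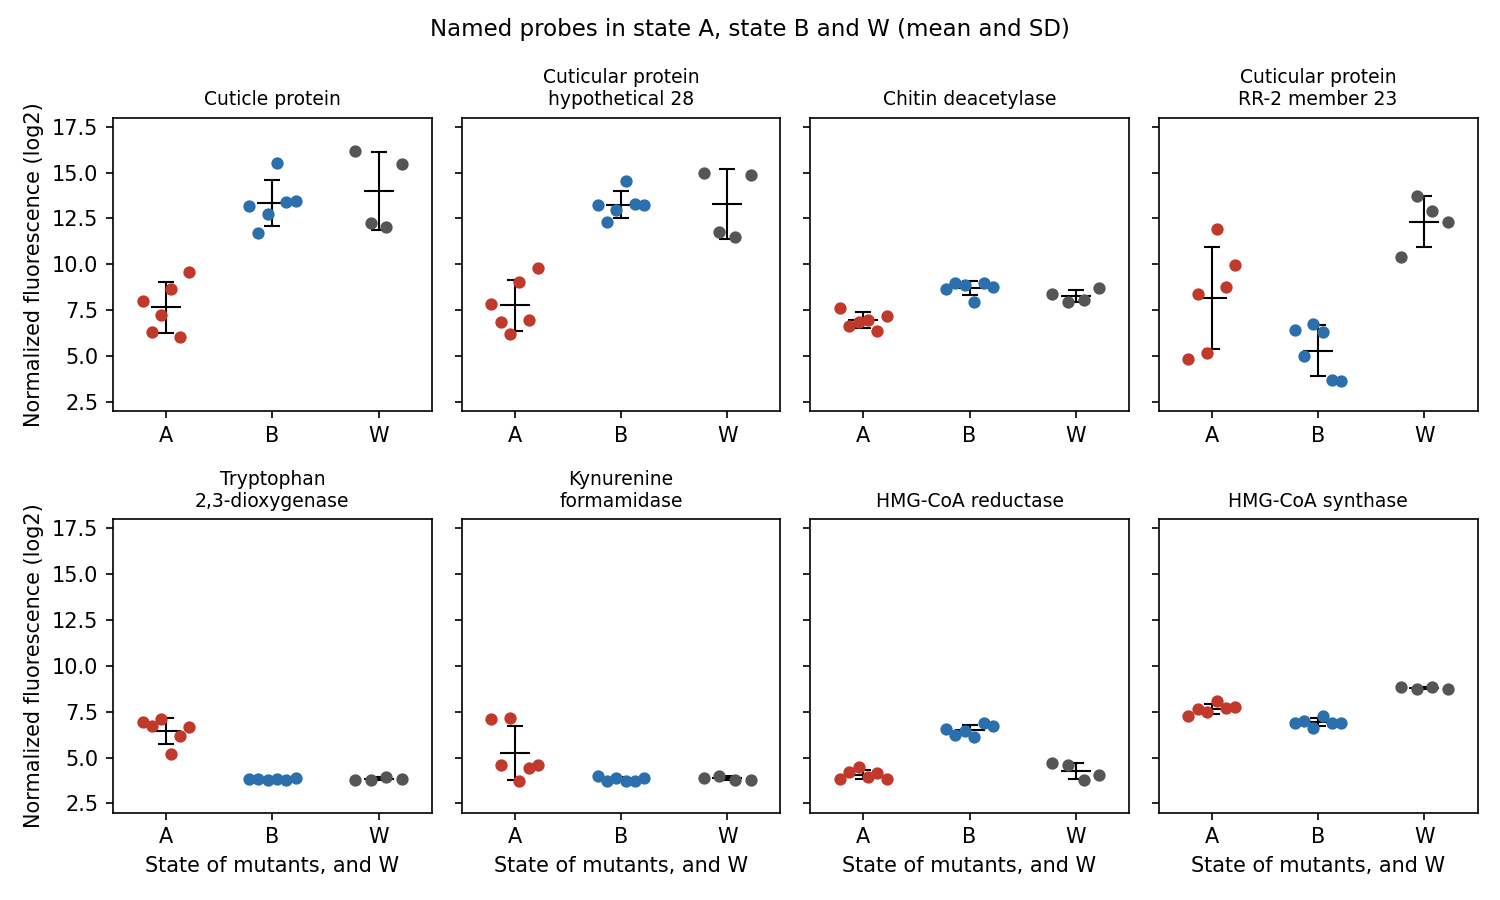
Normalized fluorescence (vertical, log2) of 8 named probes in the females of state A, state B and W; points are single females, and the bar and whiskers are the mean and SD (n = 6, 6 and 4). State A lies below state B for Cuticle protein, cuticular protein hypothetical 28, chitin deacetylase and HMG-CoA reductase, and above it for tryptophan 2,3-dioxygenase, whereas the females of state A are spread for the RR-2 cuticular protein and for kynurenine formamidase.

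For lipid metabolism the differences were smaller and less uniform. Of 14 tested probes of lipid biosynthesis, none was called higher and 2 (14.3%) were called lower (median -0.18). Of 10 of cellular lipid metabolism none was called (median 0.23), against 6.29% higher and 6.75% lower over all probes. Without clone 17 replicate 3 these medians were -0.088 and 0.40, and without clone 16 replicate 7 the second was 0.031. The probe annotated as transforming growth factor beta-induced (CUST_78329_PI429715507), the name of an extracellular matrix protein in mammals, had the largest difference of the lipid biosynthesis and acyl transferase lists. It had 5.24 to 7.63 in state A (median 5.67), 7.81 to 10.42 in state B (median 8.97), and 9.79, 8.48, 7.98 and 10.40 in W, a difference of -2.89 with every female of state A below every other. In the acyl transferase list, none of 9 tested probes was called higher and 1 (11.1%) was called lower, against 6.29% and 6.75% of all probes. The list's median was -0.37, which was -0.60 without clone 16 replicate 7, -0.56 without T+ replicate 7, -0.24 without T+ replicate 5 and -0.12 without clone 17 replicate 3.

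A pair of gene models with the same name, fatty acid hydroxylase domain containing, differed between the means of the states in opposite directions. CUST_103899_PI429715507 had 4.23 to 8.10 in state A (median 6.17) and 7.67 to 8.80 in state B (median 8.35), against 6.46, 6.43, 5.62 and 7.29 in W, a difference of -2.06 with overlap. The pair of T+ replicate 5 and clone 16 replicate 5 was here at 8.10 and 7.74, near state B. The 2 probes of gene model Dapma7bEVm010304 were higher in state A by 1.21 and 1.26, also with overlap. Inside clone 17 their differences were 1.79 and 1.74, and that of CUST_103899_PI429715507 was -1.04. Inside T+ all were negative, at -0.55 and -0.18 for the 2 probes and -0.40 for CUST_103899_PI429715507. The smallest differences were those of a very long chain fatty acid elongase (CUST_38871_PI429715507) with -0.14 and of a beta-galactosyltransferase (CUST_147640_PI429715507) with 0.15.

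The aminosugar list, whose enzymes handle the building blocks of chitin, had 7 tested probes, of which none was called higher and 1, chitin deacetylase, was called lower (14.3%). Over all probes 6.29% were called higher and 6.75% lower, and the list's median was -0.62. The probes of oscillin (CUST_25449_PI429715507), named after a glucosamine-phosphate deaminase, and of amidohydrolase domain containing (CUST_51858_PI429715507) did not overlap between the states but were below 2-fold. Oscillin had 12.69 to 13.16 in state A (median 12.80), 13.31 to 13.64 in state B (median 13.53), and 14.48, 14.09, 13.70 and 14.37 in W, a difference of -0.62. The amidohydrolase had 9.08 to 9.82 in state A (median 9.59), 10.09 to 10.42 in state B (median 10.34), and 11.01, 10.87, 10.58 and 11.17 in W, a difference of -0.71. In both, W lay above state B, and state B above state A. The remaining probe that was called lower, that of a putative peroxinectin (CUST_122552_PI429715507), had 4.85 to 6.65 in state A (median 5.97), 6.84 to 8.21 in state B (median 7.51), and 7.76, 6.40, 5.02 and 7.94 in W. Its difference was -1.66, and it was not called with normexp (-0.90), with the replicate number as a block (-1.33) or with the position as a block (-1.31).

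**Figure D5:**
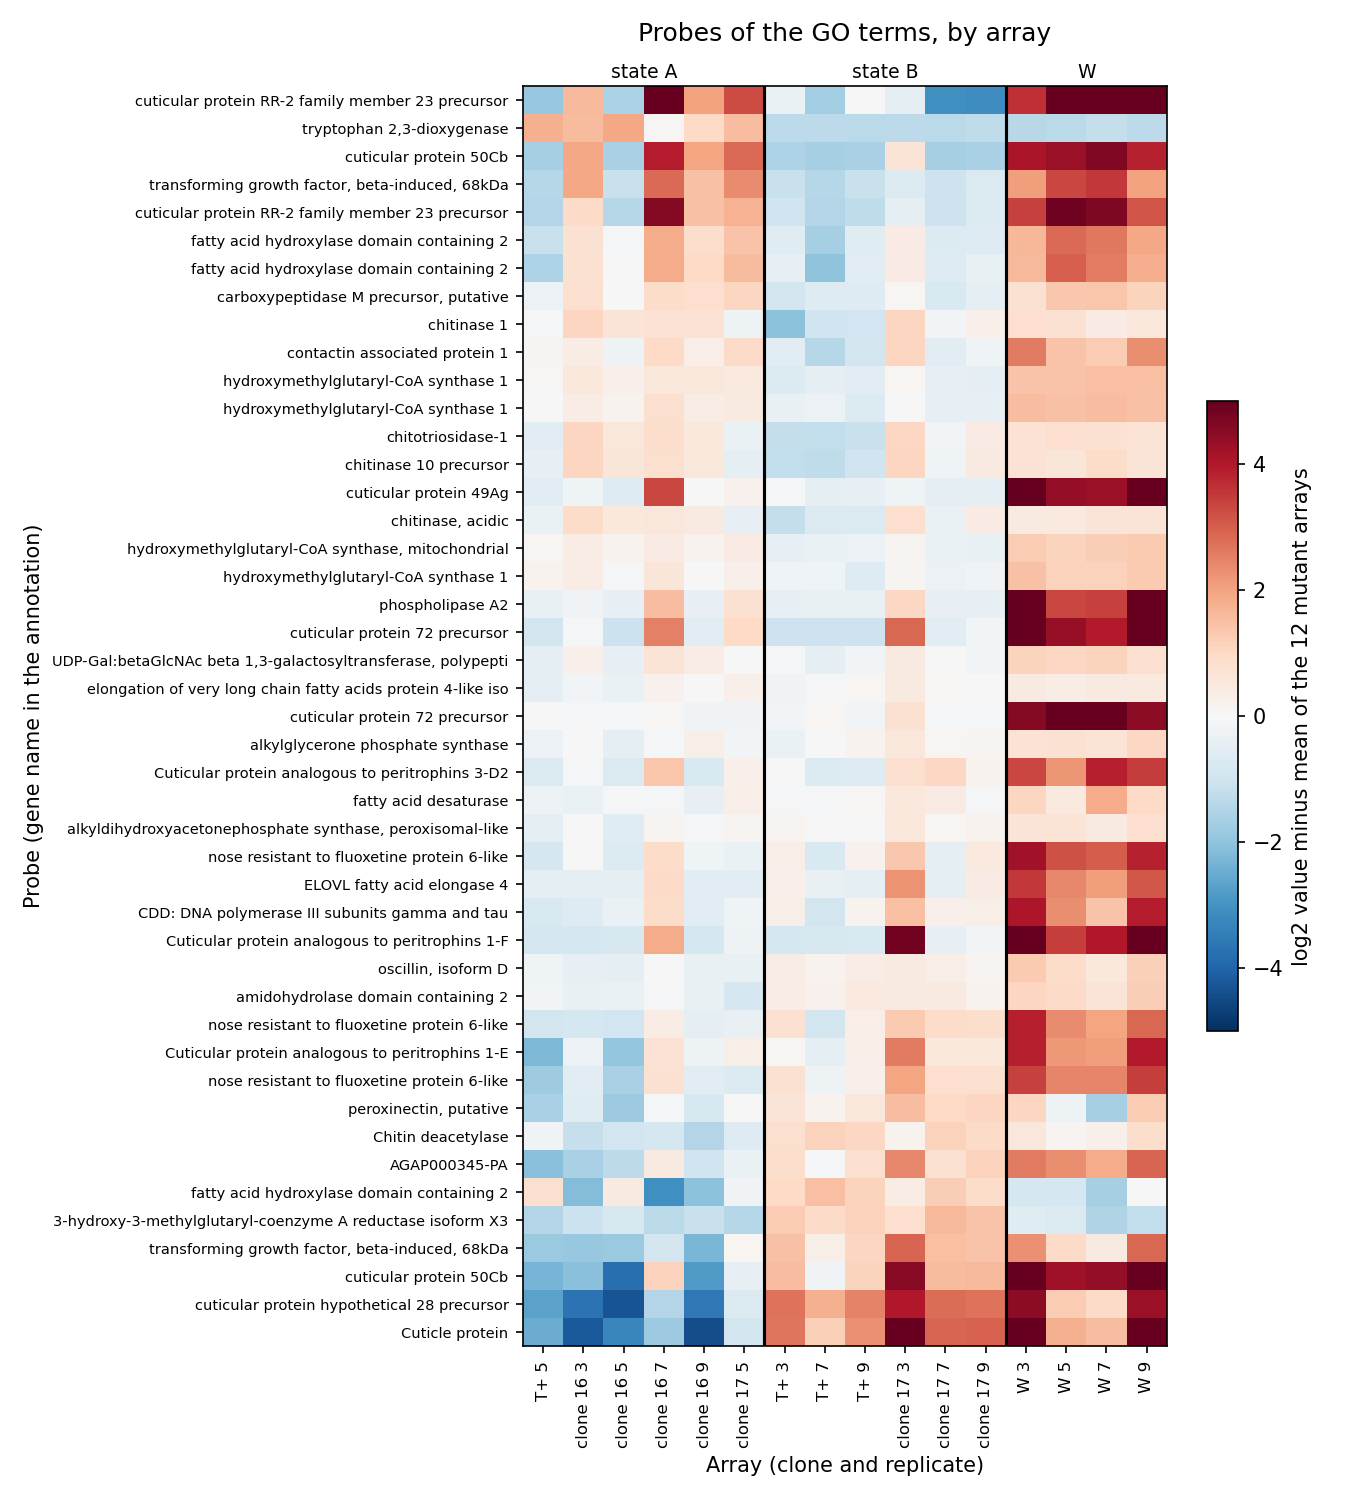
The 45 tested probes of the annotated terms (rows, ordered by the difference between the states) on the 16 arrays (columns: state A, state B, W), coloured by the log2 value minus the mean of the 12 mutant arrays. Of these, 1 was called higher and 6 lower in state A; most rows differ between mutants and W, and clone 16 replicate 7 and clone 17 replicate 3 are nearest to W in many cuticle rows.

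Within state A, 2 females of different clones were each other's nearest arrays. T+ replicate 5 and clone 16 replicate 5 correlated at 0.983, while their r with the other 4 females of the state was 0.916 to 0.964 and that among those 4 was 0.955 to 0.983. Of the 17270 probes, 595 were at least 2-fold higher and 644 at least 2-fold lower in the pair with no overlap with the 4. The pair was picked from these same arrays for its likeness, so the counts are a description and no evidence that state A is divided. The pair holds 1 mono-allelic and 1 bi-allelic female, which carry the same replicate number and position but lay on different slides. The median r between arrays was 0.983 within state B and 0.955 within state A, but the places on the axis were more spread in state B (SD 0.107, against 0.0728). Within state B, replicates 3, 7 and 9 of T+ and those of clone 17 did not overlap and differed by 2-fold at 131 probes higher and 149 lower in T+. That is a division by clone, so these counts cannot be set against those of the pair.

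The probes that the study listed as lower in the mutants than in W, as far as its lists were used here, differed between the states in both directions. Most of them were not called. Of 175 tested probes in the list shared by the 3 mutants, 8 were called higher in state A (4.57%, against 6.29% of all probes) and 6 lower (3.43%, against 6.75%), with a median difference of 0.16. That median was -0.013 without clone 16 replicate 7, 0.31 without clone 17 replicate 3 and 0.025 with the clone as a block. The mean was higher in state A at 98 of the 175 probes and lower at 77. At 62 of the 175 the means of the states differed by at least 2-fold, mostly with arrays that overlapped. Over all 17270 probes, 1087 and 1166 were called, and a further 362 and 277 reached 2-fold with overlap. The median difference of the shared list from W was -2.41 in state A and -2.67 in state B, and 174 of the 175 were lower than W in the means of both states. Since the study chose this list by its level in W, the size of that difference describes the choice. Of the lists of single clones, 16 of 229 probes lower in T+ were called higher in state A and 8 lower (6.99% and 3.49%). The numbers were 8 and 14 of 207 in clone 16 (3.86% and 6.76%), and 20 and 11 of 229 in clone 17 (8.73% and 4.80%). Over all probes the shares were 6.29% and 6.75%. In the lists of T+, clone 16 and clone 17, the means of the states differed by at least 2-fold at 86, 74 and 94 probes.

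The measures that do not depend on gene probes were compared between the states with exact permutation tests over the 924 ways of dividing 12 arrays into 6 and 6, two-sided, with Benjamini-Hochberg adjustment over 8 measures. The spike-in transcripts, RNA of known amount added to each labelling, had a mean log2 signal of 9.87 ± 0.157 in state A and 9.90 ± 0.127 in state B (SD, n = 6 each; exact p = 0.675, adjusted p = 0.772). The median local background was 41 to 47 in state A (median 45.5) and 36 to 47 in state B (median 44; exact p = 0.413, adjusted p = 0.661). The median net signal of negative control spots was 30.5 to 52.5 in state A (median 48) and 46 to 53 in state B (median 47.5; exact p = 0.504, adjusted p = 0.672). None of the 8 measures passed the threshold after adjustment, the lowest adjusted p being 0.268 by the exact permutation test. The 95th percentile of the negative controls (log2) was 5.26 to 5.87 in state A, 4.99 to 5.55 in state B and 7.01 in W replicate 7, which had the highest of all 16 arrays.

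The mean of the negative controls was the measure with the lowest unadjusted value, 78.2 ± 13.7 in state A and 98.8 ± 11.2 in state B (SD, n = 6 each; exact p = 0.039, adjusted p = 0.268). It turned on 2 of the 2533 negative control probes. RANDOM00002093 had 9.00 to 11.52 (log2) in state A, 13.96 to 16.02 in state B, and 11.98, 9.84, 8.97 and 11.75 in W replicates 3, 5, 7 and 9, and RANDOM00000431_trimmed had 8.30 to 8.85 in state A, 11.01 to 13.03 in state B, and 9.76, 8.81, 8.83 and 9.67 in W. In both, clone 17 replicate 3 was the lowest female of state B. Without these probes the mean was 77.6 in state A and 78.1 in state B. Among gene spots, 14174 to 16683 were well above background in state A (median 15203) and 12767 to 15044 in state B (median 14203), and the 100 brightest spots took up 31.5 to 34.3% of the signal in state A and 35.7 to 42.0% in state B, without overlap.

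The place of an array along its slide was not balanced over the states. The positions were 4 for T+ replicate 5, clone 16 replicate 5 and clone 17 replicate 5, 3 for clone 16 replicates 3 and 9 and 2 for clone 16 replicate 7 in state A, and 1 to 3 in state B (3.33 ± 0.816 in state A and 2.17 ± 0.753 in state B, SD, n = 6 each; exact p = 0.0671, adjusted p = 0.268). Position 4 was held by 3 of 6 arrays of state A and 0 of 6 of state B (Fisher's exact test, two-sided, p = 0.182), and the same 3 arrays are those with replicate number 5. Within T+ and clone 17, where both arrays of state A were at position 4 and none of the 6 of state B was, state, position and replicate number cannot be told apart. Fisher's exact test for position 4 in this subset gave p = 0.0357 (two-sided, unadjusted). The subset was taken after seeing the data, and this is the smallest p that 2 against 6 arrays can give, so no conclusion is drawn from it. All W arrays with a recorded place were at position 1, where they ranged from 0.244 to 0.653 on the axis. W replicate 7, the W female nearest state A (0.744 on the axis), had no recorded place. The only place not taken by another array was at position 4 of slide 2. If W replicate 7 lay there, position 4 held the 3 replicate 5 females of state A and this W female alone. The part of position in its place on the axis was not tested. Positions 2 and 3 held arrays of both states, all those of state A from clone 16, and with the position as a block, an alternative chosen after seeing the data, 1229 probes were higher and 1244 lower in state A. That fit takes the difference between the states from positions 2 and 3 alone, so no conclusion about position is drawn from it.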

How the data were processed

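For each of the 16 arrays the authors deposited the spot intensities of Agilent Feature Extraction (version 10.5.1.1 per the file headers), whose processed signal has had the background removed but is not set to a scale shared by the arrays. A second file that the authors deposited holds log2 values, found here to be the quantile normalized processed signals minus each probe's median over the arrays (r = 1.00 with the values computed here). The array of W replicate 7 came with no header, so its slide, position and spike-in slope were not recorded. The 16 arrays fill 2 slides of 8, and the only place not taken by another array is at position 4 of slide 2. W replicate 7 would have lain there if both slides held arrays of this series alone.

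Control spots and spots marked as outliers were left out, log2 processed signals of repeated spots were averaged, and the arrays were quantile normalized. Of 51424 probes, 17286 exceeded the 95th percentile of 2840 negative control spots on at least 4 arrays, and the 17270 of these with a value on every array were used. A probe was called at a mean difference of at least 2-fold with no overlap between the arrays of the states. The number of arrays limits the precision.

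The members of the states, the lists and the alternatives were chosen with earlier results of these data known. Labels put the females of a clone down as separate animals, and p-values measure the spread between these. Named were the probes with the largest and smallest difference of each annotated list, the enzymes of the mevalonate and kynurenine routes, and the first 2 of the largest differences in each direction. Gene names and gene models came from the study's supplementary annotation, which names 51 probes. Fold changes and p-values of the study, which its supplement holds, were not used, and no cell type markers could be matched to probes. The alternatives were 75th percentile scaling, normexp with an offset of 50 (limma 3.58.1 in R 4.3.3), the deposited values, other filters, outlier spots kept, blocks for clone, slide, replicate number and position, other fold limits and arrays left out. The steps were tested on simulated data. Python 3 with numpy and scipy was used for the rest.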

Additional observations from a re-analysis of the deposited data

Results flagged for a closer look

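In 46 groups of 4 or 6 values, 8 values lay far from the rest of their group. They belong to 4 arrays, and 5 of them to clone 17 replicate 3. Chance alone is expected to mark about 1 group in 20, and values of the same array are not independent of each other. That rate does not hold for places on the axis or for probes named for their difference between the states. Both were chosen on these same values. T+ replicate 5 was placed at 0.944 on the axis between the states, whereas the other 3 females of T+ lay from -0.0418 to -0.019. Clone 17 replicate 3 was placed at 0.228, and the other 5 females of state B from -0.0523 to -0.019. The same female was the lowest of state B for chitin deacetylase (CUST_100299_PI429715507, 7.97, next 8.62, log2), for CUST_58648_PI429715507 (14.35, next 16.27), for CUST_105649_PI429715507 (12.69, next 14.35) and for the mean net signal of negative controls (77.0, next 100.4). Clone 16 replicate 9 had the highest mean net signal of negative controls in state A (104.98, next 77.6). T+ replicate 7 had the lowest spike-in slope in state B (1.04, next 1.06).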

How the results depend on the processing

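A gap between the states on the axis was seen under all 25 alternatives that gave one, its lowest value being 0.56 without clone 16, against 0.64 as reported. It was 0.808 with a replicate block and 0.806 with the position on the slide as a block, and 0.916 without clone 16 replicate 7 and clone 17 replicate 3. The last 2 of these alternatives were chosen after seeing the data. With each of the 12 mutant arrays left out in turn, the gap was 0.622 (without clone 17 replicate 5) to 0.854 (without clone 17 replicate 3), the number of probes higher in state A was 1079 to 1239 and of probes lower in state A 1164 to 1297, and the r between the differences within T+ and within clone 17 was 0.78 to 0.81. This r was 0.74 with no background filter, 0.81 with a filter on the mark well above background, and 0.81 without the 2 arrays named above. The counts of higher and lower probes were within 1.5 times the reported ones under all alternatives other than a 4-fold limit, which left 715 higher and 814 lower probes. With normexp they were 769 and 837, of which 758 and 832 were among the reported ones. The cause was not tested. No label ties equal replicate numbers to a shared day or litter. Deviations of equal numbers from the clone means had an r of -0.35 to 0.80 over pairs of clones, and of 0.21 to 0.80 between T+ and clone 17. In all, 9 of 16 arrays correlated best with one of their own number, and no share expected by chance was worked out. Replicate 5 of T+ and of clone 17 is in state A, so the deviations of their replicates 3, 7 and 9 carry the split too. These values are therefore no separate evidence of a link between equal numbers. With the replicate block 1265 probes were higher and 1285 lower in state A. All mutant arrays with number 5 are in state A, so this fit took the difference from numbers 3, 7 and 9 alone. Among those numbers, state A holds only clone 16. These counts and the gap with this block therefore cannot separate state from replicate number, and no conclusion is drawn from them. Of 242 recomputed differences of 11 single probes, 5 were no longer called. Of 375 recomputed list medians, 9 moved by more than the spread between arrays, and of 72 recomputed places of W females none did. No control measure passed the threshold under any of the 112 recomputed exact permutation tests (lowest adjusted p = 0.0519). With 3 against 3 arrays on a slide, the smallest p such a test can give is 0.10. Many probes at background bound what the arrays can show: 34138 of 51424 probes were below the filter.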
